A study of Danio rerio with 6 samples.

Results

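The 8 Polycomb group genes described here are ezh2, eed, suz12a, suz12b, rnf2, bmi1a, bmi1b and pcgf1, of 32571 genes in the table. They were chosen by symbol, each symbol stands on 1 row, and all 8 were found. Polycomb group proteins keep genes silent through changes to histones. Polycomb repressive complex 2 (PRC2) methylates a lysine in the tail of histone H3, and Polycomb repressive complex 1 (PRC1) attaches ubiquitin to histone H2A and compacts chromatin. In vertebrate embryos their best known targets are developmental regulators such as the Hox genes, and the egg supplies the first Polycomb transcripts and proteins.

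RNA of whole AB zebrafish embryos from natural matings was sequenced after removal of ribosomal RNA, with 40 to 50 embryos pooled per extraction. There were 6 groups, each with 1 deposited FPKM (fragments per gene, scaled for its length and for library size) per gene. The controls were collected 2 hours post fertilisation (hpf), before most embryonic transcription, and at 6 hpf, in gastrulation. The other 6 hpf groups included embryos injected with miR-430 MO (a morpholino against miR-430, a microRNA that clears maternal RNA). Others were injected with CNOT7-DN (described by the submitters as inhibition of the deadenylase CNOT7) or with a-amanitin (an inhibitor of RNA polymerase II). A further 6 hpf control, here control B, is the one with which the authors compared amanitin. The labels do not say whether control embryos received an injection. The depth behind each value is unknown, and no value carries a standard deviation because no value per replicate was analysed here. FPKM is a level relative to all sequenced RNA of whole embryos, so fewer cells of a type and less RNA per cell cannot be told apart.

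Summed FPKM lay between 726913 (2 hpf) and 1035854 (control 6 hpf). The stage and amanitin labels were checked with stage markers, which do not check the miR-430 MO label. Among 5 maternal genes (btg4, buc, dazl, mos, zar1l) the median level was 496 FPKM at 2 hpf. At 6 hpf this median was 56.6 in the control, 29.5 in control B, 29.1 after miR-430 MO, 83.2 after CNOT7-DN and 27.1 after amanitin. Among 5 zygotic genes (krt4, ntla, sox3, sox32, tbx16) it was 0.233 FPKM at 2 hpf, 0.168 in amanitin and between 160 and 268 in the other groups. The cnot7 row, which cannot separate injected from embryonic RNA, stood at 12850.3 FPKM in CNOT7-DN and between 4.55 and 26.9 in the other groups.

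All 8 Polycomb genes were present as maternal RNA, in an order led by the PRC1 genes bmi1a and rnf2. At 2 hpf bmi1a stood at 142 FPKM, rnf2 at 126, suz12a at 91.7, ezh2 at 89.7, bmi1b at 86.2, pcgf1 at 78.4, eed at 76.5 and suz12b at 43.3. Of genes reaching 1 FPKM in that group, 94.3% were lower than bmi1a and 71.8% were lower than suz12b. Neighbours in this order cannot be separated without replicate values. At 6 hpf the order was ezh2, rnf2, suz12a, eed, bmi1a, suz12b, pcgf1 and bmi1b, both in control 6 hpf and in control B. The plot of FPKM by group shows ezh2 nearly level and 3 of the PRC1 genes spread widely.

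**Figure D1:**
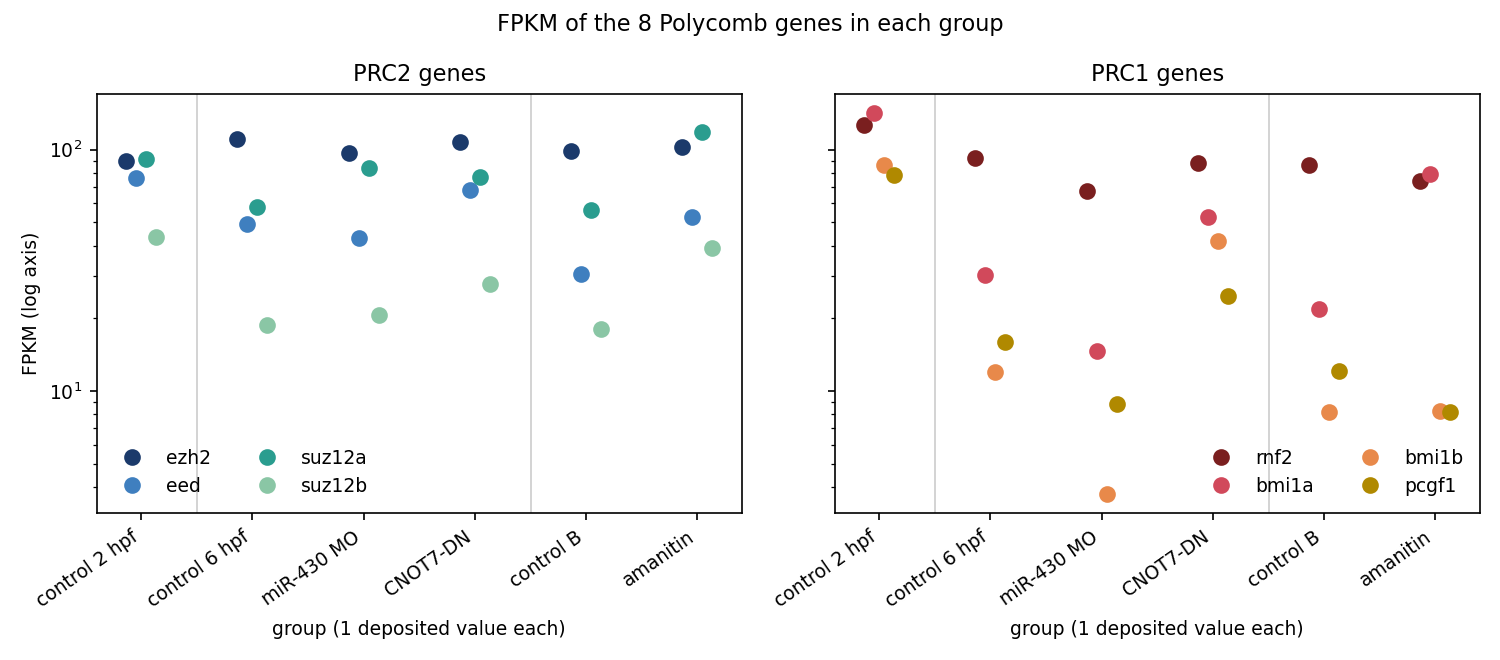
FPKM (log axis) of the 4 PRC2 genes (left) and the 4 PRC1 genes (right) in the 6 groups, 1 deposited value per group, with small sideways offsets. ezh2 stays between 89.7 and 111 FPKM, while bmi1b runs from 86.2 at 2 hpf to 3.75 in miR-430 MO.

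The PRC2 genes are taken first. ezh2 (ENSDARG00000010571, chromosome 24, 17894625 to 17913559 on Zv9 as the table lists it) encodes the methyltransferase. It stood at 89.7 FPKM at 2 hpf. At 6 hpf it stood at 111 FPKM in the control, 98.3 in control B, 96.6 after miR-430 MO, 108 after CNOT7-DN and 103 after amanitin. Its level was the most even of the 8, with no group apart from the rest. Its paralog ezh1, the other vertebrate Polycomb methyltransferase, stood between 0.31 and 1.29 FPKM in every group.

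suz12a (ENSDARG00000070256, chromosome 3, 35934687 to 35950336) and suz12b (ENSDARG00000052022, chromosome 6, 19365846 to 19378460) are duplicates of the subunit that holds PRC2 together. suz12a stood at 91.7 FPKM at 2 hpf. Control embryos at 6 hpf gave 57.9 (control 6 hpf) and 56.0 (control B), while CNOT7-DN embryos gave 76.9, miR-430 MO embryos 83.9 and amanitin embryos 118. suz12b stood at 43.3 FPKM at 2 hpf. At 6 hpf it stood at 18.8 FPKM in the control, 18.1 in control B, 20.6 after miR-430 MO, 27.9 after CNOT7-DN and 39.2 after amanitin. Both were lowest in the 6 hpf controls, and amanitin was the highest group for suz12a and the second highest for suz12b.

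eed (ENSDARG00000040548, chromosome 1, 571414 to 658993) encodes the subunit that reads the methyl mark and stimulates the enzyme. It stood at 76.5 FPKM at 2 hpf. Control embryos at 6 hpf gave 49.4 (control 6 hpf) and 30.6 (control B), while CNOT7-DN embryos gave 67.7, miR-430 MO embryos 43.1 and amanitin embryos 52.4. Its locus is shared with 9 other rows of the table, so its level is less certain than that of the other 7 genes, whose loci are shared with none. The 6 hpf controls were 1.62-fold apart for eed, more than for any of the other 7 genes.

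Of the PRC1 genes, rnf2 (ENSDARG00000010381, chromosome 2, 22809087 to 22819674) encodes the ubiquitin ligase common to PRC1 complexes. It stood at 126 FPKM at 2 hpf. At 6 hpf it stood at 92.5 FPKM in the control, 86.5 in control B, 67.5 after miR-430 MO, 87.9 after CNOT7-DN and 74.0 after amanitin. All 6 hpf groups lay below 2 hpf. No row was matched to ring1, the paralog of rnf2 in mammals.

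bmi1a (ENSDARG00000006010, chromosome 24, 17809105 to 17816340) and bmi1b (ENSDARG00000013076, chromosome 2, 20960929 to 20966517) are duplicates of the RING finger partner of the ligase in canonical PRC1. bmi1a stood at 142 FPKM at 2 hpf. Control embryos at 6 hpf gave 30.3 (control 6 hpf) and 21.8 (control B), while CNOT7-DN embryos gave 52.7, miR-430 MO embryos 14.7 and amanitin embryos 79.3. bmi1b stood at 86.2 FPKM at 2 hpf. At 6 hpf it stood at 11.97 FPKM in the control, 8.19 in control B, 3.75 after miR-430 MO, 41.8 after CNOT7-DN and 8.29 after amanitin. Both were lowest in miR-430 MO, and amanitin separated them: it held the second highest level of bmi1a and nearly the control B level of bmi1b.

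pcgf1 (ENSDARG00000001249, chromosome 14, 5400794 to 5413473) encodes the RING finger partner in a variant PRC1 that works with Kdm2b and Bcor. It stood at 78.4 FPKM at 2 hpf. Control embryos at 6 hpf gave 16.0 (control 6 hpf) and 12.2 (control B), while CNOT7-DN embryos gave 24.8, miR-430 MO embryos 8.82 and amanitin embryos 8.22. Amanitin and miR-430 MO were its lowest groups.

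The comparison of control 6 hpf with control 2 hpf spans genome activation. Remaining maternal RNA and new embryonic RNA cannot be told apart in the 6 hpf levels. A gene is said to have risen or fallen where the authors' deposited table gives it a q-value under 0.05, and sizes are log2 ratios of FPKM + 1. Of the 8 genes, 6 fell and 1 rose in the authors' deposited table, where 51.7% of all tested genes fell and 20.8% rose. The fall was largest for the RING finger partners: the log2 ratio was -2.75 for bmi1b, -2.23 for pcgf1 and -2.20 for bmi1a (q = 0.0001 for each in the authors' deposited table). The authors' Cuffdiff p-value was 5e-05 for each, the smallest in their table. Equal q-values at this floor, here and in the later comparisons, do not rank genes. Of the 16333 genes that reached 1 FPKM in either group, 0.655% had a lower ratio than bmi1b, 2.86% a lower one than pcgf1 and 3.19% a lower one than bmi1a. At 6 hpf bmi1b stood at 13.9% of its 2 hpf FPKM, pcgf1 at 20.3% and bmi1a at 21.3%.

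The others changed less. suz12b fell, with a log2 ratio of -1.16, as did suz12a at -0.65 (q = 0.0001 for both in the authors' deposited table). rnf2 fell by 0.45 (q = 0.000195 in the authors' deposited table), a difference that turned to 0.019 when centred on the median gene. ezh2 rose by 0.30 (q = 0.0103 in the authors' deposited table), which turned to -0.21 after rescaling to equal sums and to -0.65 when centred on ribosomal protein genes. eed, at -0.62, did not pass (q = 0.136 in the authors' deposited table). The 8 genes had a median of -0.91, against -0.47 over all 16333 genes considered. At least 2-fold lower were 4 of the 8, as were 29.9% of all genes, and none was 2-fold higher, as were 18.6%. In this comparison rescaling adds about -0.51, centring on the median gene 0.47 and centring on ribosomal protein genes -0.95 to each log2 ratio.

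**Figure D2:**
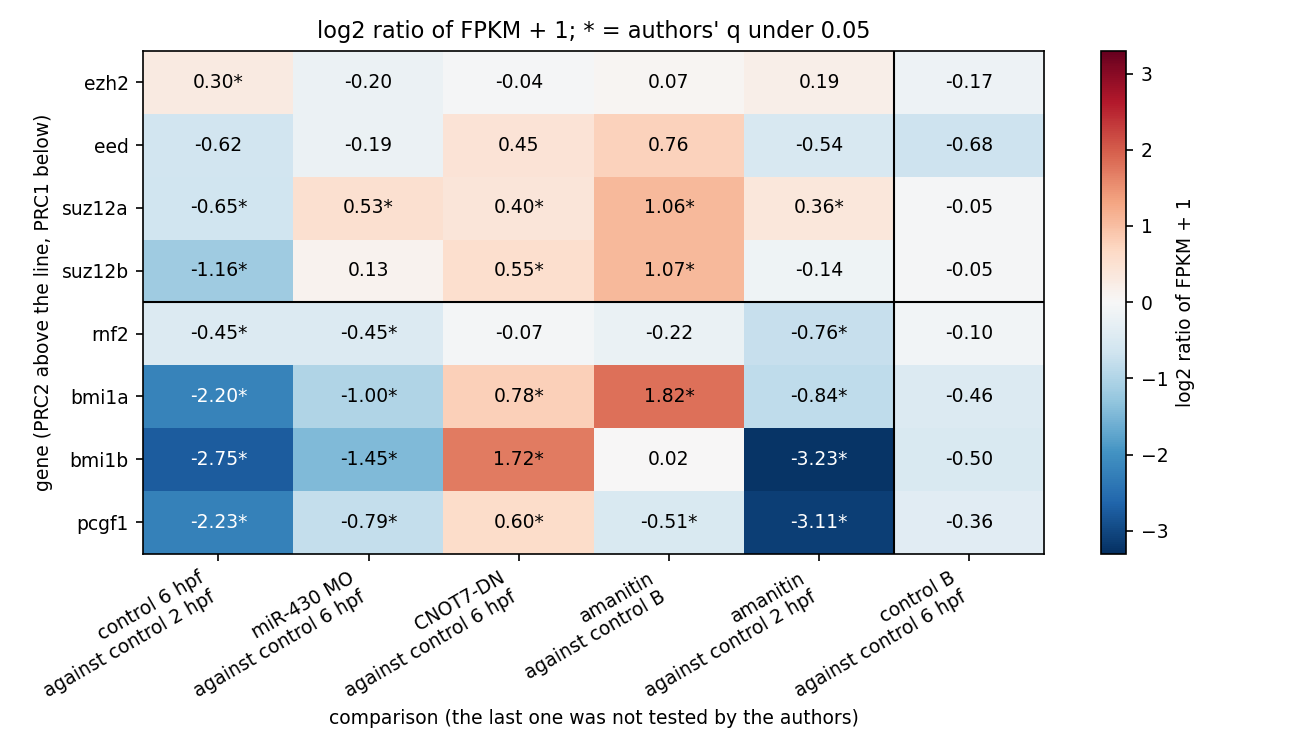
Colour and number give the log2 ratio of FPKM + 1 of each gene in the 5 comparisons tested by the authors and between the 6 hpf controls, and an asterisk marks q under 0.05 in the authors' deposited table. bmi1b holds the lowest value, -3.23 in amanitin against control 2 hpf, and bmi1a the highest, 1.82 in amanitin against control B.

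The 6 hpf controls were not tested against each other by the authors. All 8 genes were lower in control B than in control 6 hpf, by 0.046 (suz12a) to 0.68 (eed) on the log2 scale as deposited. Of all 15826 genes considered, 8631 were lower in control B. The differences of suz12a, suz12b and rnf2 turned sign after rescaling to equal sums. The median of the 8 was -0.27, against -0.044 over all genes, and none was 2-fold apart, as were 2.34% of genes (higher) and 1.57% (lower). bmi1a, bmi1b and pcgf1 differed by -0.46, -0.50 and -0.36, so differences of that size also arose between control groups.

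The comparison of miR-430 MO with control 6 hpf asks which RNA levels depend on this microRNA. All 4 PRC1 genes fell against control 6 hpf and 1 PRC2 gene rose in the authors' deposited table, where 16.1% of all tested genes fell and 9.41% rose. bmi1b fell from 11.97 to 3.75 FPKM, by 1.45 on the log2 scale (q = 0.000589 in the authors' deposited table), and 0.589% of 15611 genes had a lower ratio. bmi1a fell from 30.3 to 14.7 FPKM (q = 0.000589 in the authors' deposited table). pcgf1 fell from 16.0 to 8.82 (q = 0.00341) and rnf2 from 92.5 to 67.5 (q = 0.00193), both q from the authors' deposited table. The log2 ratios of bmi1a, pcgf1 and rnf2 were -0.995, -0.787 and -0.45.

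suz12a rose from 57.9 to 83.9 FPKM (q = 0.00304 in the authors' deposited table), and 91.6% of genes had a lower ratio. ezh2 at -0.20, eed at -0.19, which turned to 0.48 against control B, and suz12b at 0.13 did not pass. With control B in place of control 6 hpf, computed for single genes after the data were seen, the log2 ratios were -0.95 for bmi1b, -0.54 for bmi1a, -0.42 for pcgf1, -0.35 for rnf2 and 0.57 for suz12a. Against control 6 hpf, each of these 5 kept its sign under rescaling and both centrings, which were not run against control B. The 8 genes had a median of -0.32 against -0.12 over all genes. On the log2 scale used, 1 of the 8 was at least 2-fold lower, as were 2.26% of all genes, and none was 2-fold higher, as were 2.67%.

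In CNOT7-DN embryos 5 of the 8 genes rose against control 6 hpf and 0 fell in the authors' deposited table, where 10.1% of all tested genes rose and 4% fell. bmi1b rose from 11.97 to 41.8 FPKM, by 1.72 on the log2 scale (q = 0.000996 in the authors' deposited table), and 99.6% of 15627 genes had a lower ratio. bmi1a rose from 30.3 to 52.7 (q = 0.000996) and pcgf1 from 16.0 to 24.8 (q = 0.0126) in the authors' deposited table. The duplicates suz12b, from 18.8 to 27.9 FPKM (q = 0.0177), and suz12a, from 57.9 to 76.9 (q = 0.0335), rose as well in the authors' deposited table. At q under 0.01 only bmi1a and bmi1b of the 8 remained called. ezh2 at -0.041 and rnf2 at -0.072 were near 0 and did not pass. eed, at 0.45, did not pass either (q = 0.576 in the authors' deposited table), and stood at 1.12 against control B, where no test was made.

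The 5 risen genes kept their sign under rescaling and both centrings. Against control B their log2 ratios were 2.22 for bmi1b, 1.24 for bmi1a, 0.97 for pcgf1, 0.60 for suz12b and 0.45 for suz12a. The median of the 8 genes was 0.50 against control 6 hpf, where all genes had a median of 0.037. At least 2-fold higher was 1 of the 8, bmi1b, as were 1.52% of all genes, and none was 2-fold lower, as were 1.28%. The 5 risen genes stood below their 2 hpf FPKM in CNOT7-DN, suz12a at 83.9% of it, suz12b at 64.4%, bmi1b at 48.5%, bmi1a at 37.0% and pcgf1 at 31.6%. ezh2 was the 1 gene of the 8 above its 2 hpf level in CNOT7-DN, at 108 against 89.7 FPKM.

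The miR-430 MO and CNOT7-DN comparisons share control 6 hpf, so their ratios are not independent. Set directly against each other, which was decided with the values in view and not tested by the authors, CNOT7-DN was 11.1-fold higher in FPKM than miR-430 MO for bmi1b, 3.58-fold for bmi1a and 2.81-fold for pcgf1. These 3 of the 8 were at least 2-fold higher on the log2 scale, as were 6.68% of 15677 genes, and none was 2-fold lower, as were 2.58%. The remaining 5 genes lay between -0.12 (suz12a) and 0.64 (eed) on the log2 scale. The pattern was not particular to PRC1 genes. Of the 5 maternal genes used to check the labels, 4 were higher in CNOT7-DN than in miR-430 MO and 1 was lower. At least 2-fold higher were 3 of these 5. Their median log2 ratio was 1.49, beside 1.58 for the 4 PRC1 genes, and whether these differ was not tested.

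**Figure D3:**
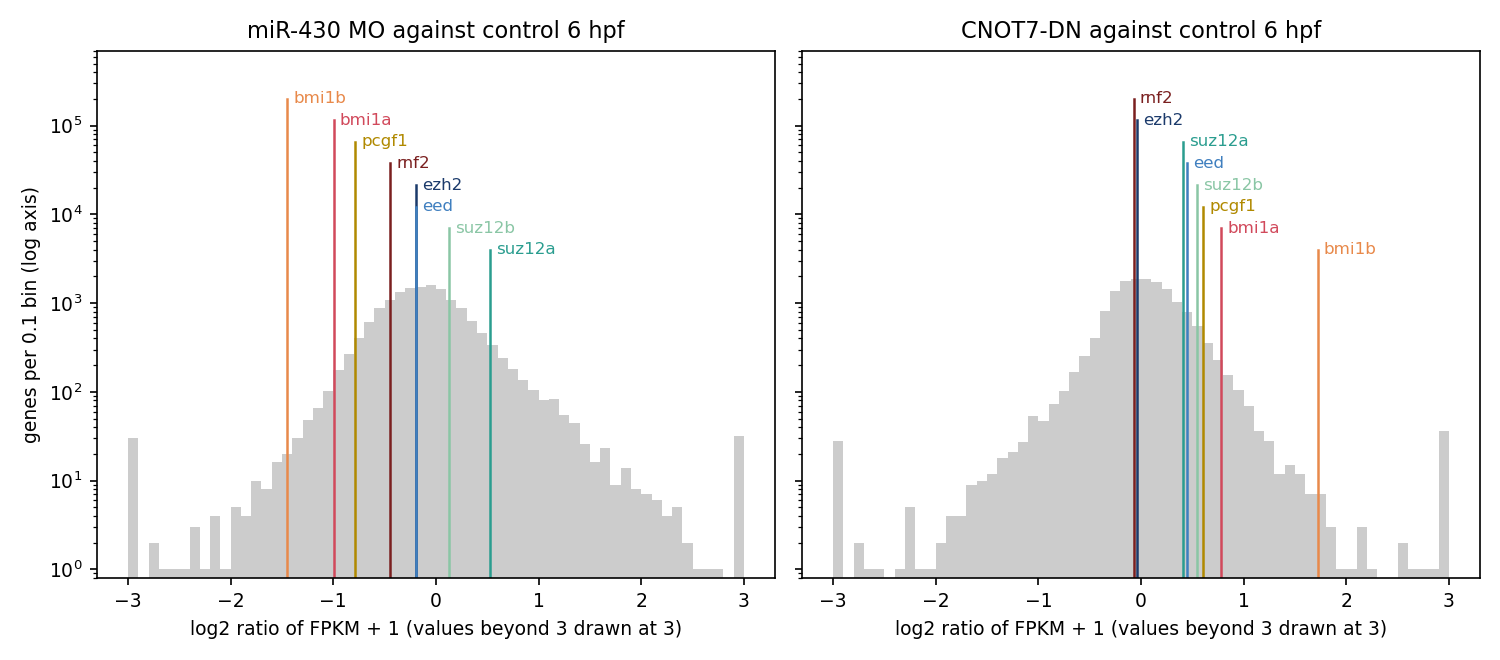
Grey bars count genes (log axis) by log2 ratio of FPKM + 1 in miR-430 MO and in CNOT7-DN, each against control 6 hpf, and coloured lines mark the 8 Polycomb genes. bmi1b lies in the lower tail on the left at -1.45 and in the upper tail on the right at 1.72.

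Amanitin asks which levels depend on transcription by the embryo. Against control B, 3 of the 8 genes rose and 1 fell, by q in the authors' deposited table, where 41.6% of all tested genes rose and 29.2% fell. bmi1a rose from 21.8 to 79.3 FPKM, by 1.82 on the log2 scale, suz12b from 18.1 to 39.2 and suz12a from 56.0 to 118 (q = 0.000105 for each in the authors' deposited table). The log2 ratios of the suz12 pair were 1.07 and 1.06. pcgf1 fell from 12.2 to 8.22 FPKM, by 0.51 (q = 0.019 in the authors' deposited table), which turned to 0.58 when centred on ribosomal protein genes.

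The other 4 did not pass. bmi1b stood at 8.19 FPKM in control B and 8.29 in amanitin (q = 0.93 in the authors' deposited table), ezh2 at 98.3 and 103, rnf2 at 86.5 and 74.0, and eed at 30.6 and 52.4. The median of the 8 was 0.41 against 0.12 over all genes, and -0.011 with control 6 hpf in place of control B. At least 2-fold higher were 3 of the 8, as were 20.5% of all genes, and none was 2-fold lower, as were 28.7%. In this comparison rescaling adds about 0.37, centring on the median gene -0.12 and centring on ribosomal protein genes 1.09. With control 6 hpf in place of control B, computed for single genes after the data were seen, the log2 ratio was 1.36 for bmi1a and 1.02 for suz12a and suz12b. It was 0.083 for eed, -0.11 for ezh2, -0.32 for rnf2, -0.48 for bmi1b and -0.88 for pcgf1. The authors made no test there.

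The comparison of amanitin with control 2 hpf follows maternal RNA where little new RNA is made. All 4 PRC1 genes fell and 1 PRC2 gene rose in the authors' deposited table, where 44.1% of all tested genes fell and 22.2% rose. The log2 ratio was -3.23 for bmi1b and -3.11 for pcgf1, which were left at 9.62% and 10.5% of their 2 hpf FPKM (q = 0.000123 for both in the authors' deposited table). It was -0.84 for bmi1a and -0.76 for rnf2, left at 55.7% and 58.6% (q = 0.000123 for both in the authors' deposited table). Of the PRC2 genes suz12a rose by 0.36 (q = 0.00453 in the authors' deposited table), which in FPKM does not show that RNA was made. ezh2 at 0.19, suz12b at -0.14 and eed at -0.54 did not pass. At least 2-fold lower were 2 of the 8, as were 28.3% of all genes, and none was 2-fold higher, as were 5.5%. The median of the 8 was -0.65, and that of all genes -0.34.

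The duplicated pairs can be compared in FPKM, which is per length. The ratio of bmi1a to bmi1b was 1.65 at 2 hpf. At 6 hpf it was 2.53 in the control, 2.66 in control B, 3.91 after miR-430 MO, 1.26 after CNOT7-DN and 9.57 after amanitin. bmi1a had the higher FPKM in every group. Between the 6 hpf controls bmi1a differed 1.39-fold and bmi1b 1.46-fold, both lower in control B, so their ratio moved less, from 2.53 to 2.66. How far the 1.26 in CNOT7-DN would vary between replicates is unknown. Without replicate values the copies cannot be separated in that group. The ratio of suz12a to suz12b was 2.12 at 2 hpf. Control embryos at 6 hpf gave 3.08 (control 6 hpf) and 3.09 (control B), while CNOT7-DN embryos gave 2.76, miR-430 MO embryos 4.07 and amanitin embryos 3.01. The ratio of the bmi1 pair thus ran over a wider range than that of the suz12 pair, and these differences were not tested.

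**Figure D4:**
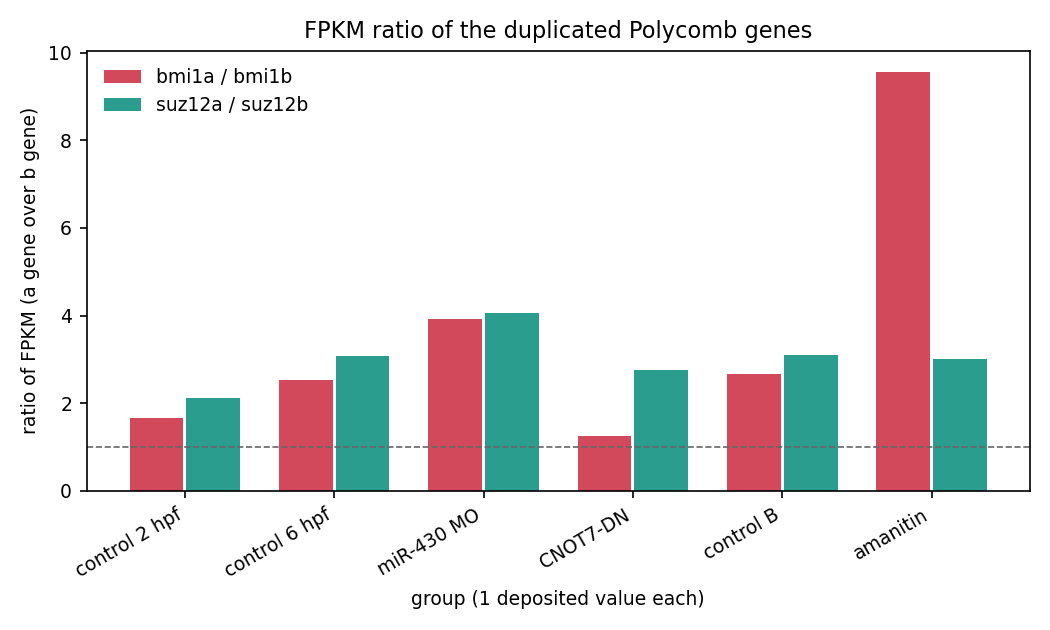
Bars give the FPKM ratio of bmi1a to bmi1b and of suz12a to suz12b in the 6 groups, 1 deposited value per gene and group, with a dashed line at equal levels. The bmi1 ratio is lowest in CNOT7-DN at 1.26 and highest in amanitin at 9.57, while the suz12 ratio stays between 2.12 and 4.07.

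Of the PCGF family, the RING finger partners to which bmi1a, bmi1b and pcgf1 belong, pcgf6 and pcgf5b also fell from 2 to 6 hpf, as did 51.7% of all tested genes. pcgf6 fell from 66.1 to 21.99 FPKM and pcgf5b from 32.7 to 12.1 (q = 0.0001 for both in the authors' deposited table). Neither passed in miR-430 MO, where pcgf6 stood at 22.8 and pcgf5b at 10.4 FPKM (q = 0.879 and 0.69 in the authors' deposited table). In CNOT7-DN pcgf6 rose to 33.2 FPKM (q = 0.00509), and pcgf5b, at 12.3, did not pass (q = 0.975) in the authors' deposited table. In amanitin pcgf6 rose to 28.3 FPKM from 16.5 in control B and pcgf5b to 22.2 from 9.82 (q = 0.000105 for both in the authors' deposited table). pcgf5a stayed between 0.142 and 0.459 FPKM and passed in none of the 5 tested comparisons. rybpa, which encodes a partner of the ligase in variant PRC1, changed in the direction of bmi1a in 4 comparisons. From 2 to 6 hpf it fell from 28.1 to 13.6 FPKM, then stood at 8.45 in miR-430 MO and 20.9 in CNOT7-DN, and against 13.4 in control B it rose to 49.8 in amanitin (q between 0.0001 and 0.00231 for these 4 differences in the authors' deposited table). Between 2 hpf and amanitin they went opposite ways: rybpa rose, with a log2 ratio of 0.80, and bmi1a fell at -0.84 (q = 0.000123 for both in the authors' deposited table).

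The genes of the other lists went both ways between 2 and 6 hpf, as the plot of gene lists shows. The counts of each list between these stages stand against 20.8% risen and 51.7% fallen among all tested genes, whose median was -0.47. Of the other canonical PRC1 genes, which include the chromodomain readers (cbx) and polyhomeotic genes (phc), 4 of 13 tested rose and 8 fell, by q in the authors' deposited table. Their median log2 ratio was -1.16, and their share of fallen genes was not far from that of all genes. The symbols cbx8a and phc2b each stand on more than 1 row of this list. All of their rows had log2 ratios below -1.16, so the repeats pull the median down. The median without them was not computed. The reader cbx8b fell from 54.1 to 7.74 FPKM, and the polyhomeotic gene phc2b (ENSDARG00000013224, chromosome 6) from 20.2 to 3.62. The Scm homologs scmh1 and SCML2 rose from 0.663 to 5.71 and from 0.37 to 7.52 (q = 0.0001 for these 4 rows in the authors' deposited table). Not all readers and polyhomeotic genes were lower at 6 hpf: cbx2 went from 82.7 to 136 FPKM and phc1 from 2.78 to 8.06.

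Of the other variant PRC1 genes, 7 of 20 tested rose and 10 fell, by q in the authors' deposited table, with a median of -0.28. The share of fallen genes was close to that of all genes. This list also holds genes with roles outside PRC1, such as max, skp1, usp7 and the casein kinase genes ck2a1, ck2a2a, ck2a2b and ck2b. The largest rise was that of yaf2, a partner of the ligase, from 0.444 to 32.1 FPKM (q = 0.0034 in the authors' deposited table). kdm2ba, a duplicate of the CpG-binding gene Kdm2b, rose from 16.8 to 46.1 FPKM, and a row that the reference names bcorl1 fell from 16.9 to 4.21 (q = 0.0001 for both in the authors' deposited table). Of the other PRC2 genes 1 of 6 tested rose and 2 fell, by q in the authors' deposited table, with a median of 0.22. The accessory gene mtf2 fell from 62.7 to 33.4 FPKM and the histone-binding gene rbb4 from 259 to 150.5, and aebp2 rose from 31.2 to 47.4 (q = 0.0001 for each in the authors' deposited table). The rise of aebp2 turned to -0.36 when centred on ribosomal protein genes.

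**Figure D5:**
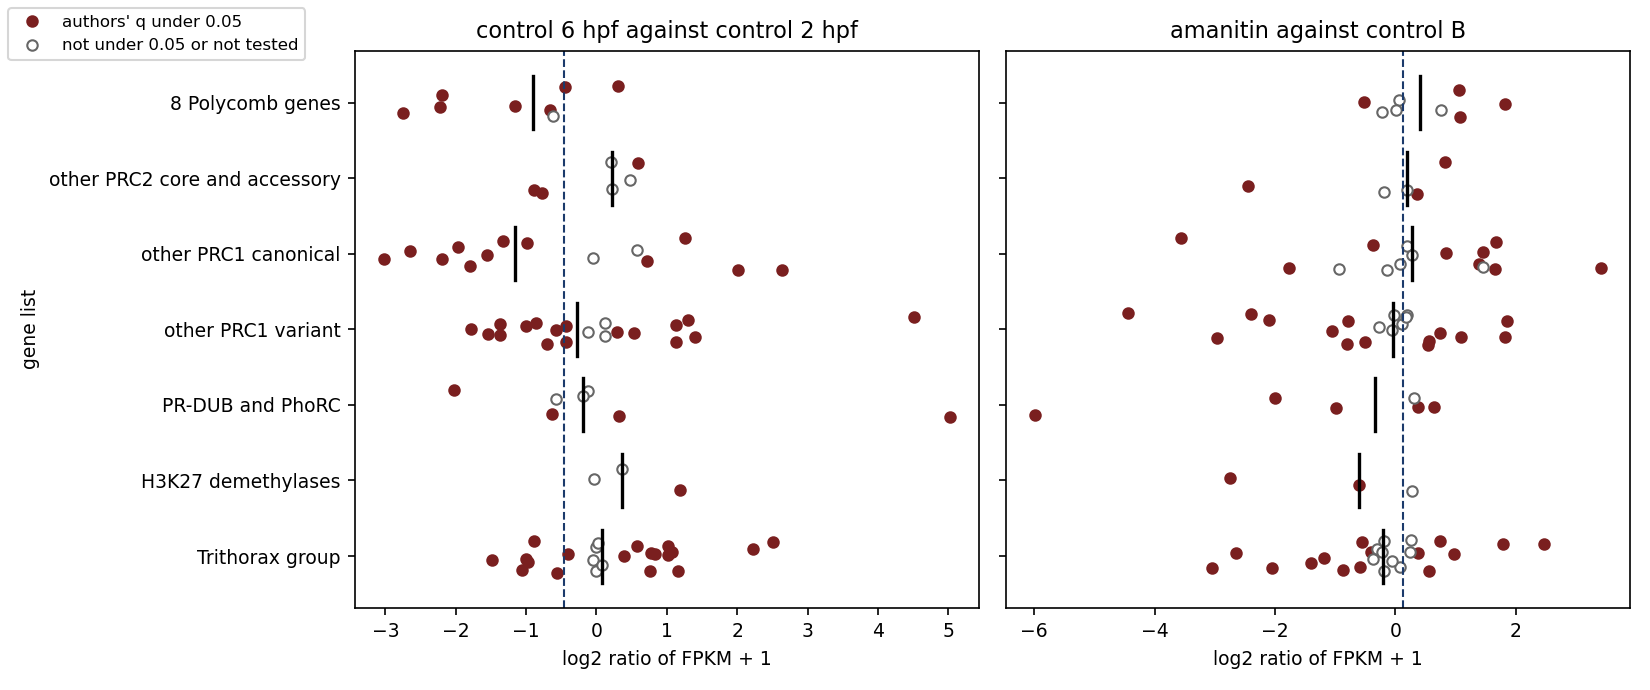
Points are genes that reached 1 FPKM in either group, by log2 ratio of FPKM + 1, filled where q was under 0.05 in the authors' deposited table, with a black bar at each list's median and a dashed line at the median of all genes. In control 6 hpf against control 2 hpf the median of the 8 Polycomb genes is -0.91 and that of the other canonical PRC1 genes -1.16. The latter counts cbx8a and phc2b on repeated rows.

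The list named for the deubiquitinase complex PR-DUB and the DNA-binding PhoRC also holds l3mbtl1, l3mbtl1a and l3mbtl1b, which are core subunits of neither. It had 2 risen and 2 fallen genes of 7 tested in the authors' deposited table, with a median of -0.20. Among all tested genes 20.8% rose and 51.7% fell. yy1a, a homolog of the Drosophila recruiter Pho, rose from 3.96 to 161 FPKM and sfmbt1 fell from 31.9 to 7.04 (q = 0.0001 for both in the authors' deposited table). asxl1, a partner of the deubiquitinase, rose from 24.4 to 30.9 FPKM (q = 0.00659 in the authors' deposited table), which turned to -0.17 after rescaling and to -0.62 when centred on ribosomal protein genes. Of the demethylases that remove the PRC2 mark 1 of 3 tested rose and 0 fell, by q in the authors' deposited table, with a median of 0.37. The risen row, named KDM6B by the reference, went from 7.63 to 18.7 FPKM (q = 0.0001 in the authors' deposited table).

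Trithorax group genes, which oppose Polycomb silencing, had 11 risen and 7 fallen members of 23 tested in the authors' deposited table, with a median of 0.084, beside the same 20.8% and 51.7% of all tested genes. The histone methyltransferase family genes mll5 and mll3b rose from 0.795 to 9.24 FPKM and from 6.73 to 35.02, and setd1a from 2.64 to 7.17. dpy30, also on this list, rose from 101 to 215, while the remodelling ATPase gene smarca2 fell from 30.5 to 10.2 (q = 0.0001 for these 5 in the authors' deposited table). Between 2 and 6 hpf the median of the other canonical PRC1 genes stayed negative under rescaling and both centrings, and the medians of the other 5 lists turned sign under at least 1 of them. The canonical PRC1 median includes the repeated rows of cbx8a and phc2b.

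In amanitin against control B, 41.6% of all tested genes rose and 29.2% fell, and the list counts stand against these shares. Amanitin left 6 risen and 3 fallen of 14 tested other canonical PRC1 genes in the authors' deposited table, with a median of 0.27. Of the other variant PRC1 genes 6 of 20 tested rose and 8 fell, by q in the authors' deposited table, with a median of -0.036. Of the other PRC2 genes 2 of 5 tested rose and 1 fell, by q in the authors' deposited table, with a median of 0.20. The Trithorax list had 6 risen and 9 fallen of 23 tested in the authors' deposited table, with a median of -0.20. PR-DUB and PhoRC genes had 2 risen and 3 fallen of 6 tested there, with a median of -0.33, and of 3 tested demethylases 0 rose and 2 fell, by q in the authors' deposited table, with a median of -0.59. All 4 negative medians turned sign under rescaling, under ribosomal centring or under both, and the positive ones did not.

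Several genes that rose from 2 to 6 hpf fell in amanitin. From control B to amanitin yy1a fell from 161 to 1.55 FPKM, yaf2 from 39.7 to 0.866, SCML2 from 14.0 to 0.276, scmh1 from 10.1 to 2.29, mll5 from 14.0 to 0.805, mll3b from 55.1 to 7.98 and kdm2ba from 51.7 to 5.73. Some genes with maternal RNA fell too: rbb4 from 152 to 27.1 FPKM, the deubiquitinase gene bap1 from 26.4 to 5.84, the demethylase gene kdm6a from 40.5 to 5.16 and rybpb, a partner of the ligase, from 13.2 to 1.71. q lay between 0.000105 and 0.0048 for these 11 genes in the authors' deposited table. smarca2 rose from 8.37 to 50.9, mtf2 from 39.3 to 70.5 (q = 0.000105 for both) and jarid2b, an accessory gene of PRC2, from 29.96 to 38.997 (q = 0.00727) in the authors' deposited table. asxl1 fell from 66.8 to 33.4 FPKM and the KDM6B row from 45.9 to 30.1 (q = 0.000105 for both in the authors' deposited table), both turning sign when centred on ribosomal protein genes. In control 6 hpf these rows stood lower than in control B, at 30.9 and 18.7 FPKM. Several other rows named here did too, among them rybpb at 5.92, jarid2b at 16.7 and SCML2 at 7.52, while bap1 and smarca2 stood higher. For jarid2b the controls differed by 0.81 on the log2 scale, beside 0.37 between amanitin and control B.

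Among all tested genes 9.41% rose and 16.1% fell in miR-430 MO, and 10.1% rose and 4% fell in CNOT7-DN. In miR-430 MO the other canonical PRC1 genes had 3 risen and 2 fallen of 10 tested, and the other variant PRC1 genes 2 and 4 of 20, in the authors' deposited table. In CNOT7-DN these counts were 2 and 1 of 11 and 3 and 0 of 20 in the authors' deposited table. The medians lay between -0.16 and -0.11 in miR-430 MO and between 0.082 and 0.27 in CNOT7-DN. For the PRC1 genes among the 8 the medians were -0.89 and 0.69, and whether these differ from the other lists was not tested. Single genes of the other PRC1 lists also moved in miR-430 MO. cbx8b fell from 7.74 to 3.08 FPKM and phc2b (chromosome 6) from 3.62 to 1.82, and scmh1 rose from 5.71 to 16.4 (q = 0.000589 for each in the authors' deposited table). bcor went from 7.85 to 2.37 FPKM. Against control 6 hpf, the 5 maternal genes used to check the labels had medians similar to those of the PRC1 genes among the 8, -0.97 in miR-430 MO and 0.50 in CNOT7-DN. In miR-430 MO this depended on the control. The maternal median level was 29.1 FPKM there and 29.5 in control B. zar1l and mos were lower than in control B, dazl and buc higher, and btg4 nearly level. The PRC1 genes among the 8 lay between -0.95 and -0.35 against control B. Of the 5 maternal genes, 3 fell and 0 rose in miR-430 MO against control 6 hpf, by q in the authors' deposited table. In CNOT7-DN 3 rose and 0 fell by the same rule. In miR-430 MO 1 of 22 tested Trithorax genes rose and 6 fell, 2 of 3 demethylase genes fell, 1 of 6 PR-DUB and PhoRC genes fell and 1 of 6 other PRC2 genes rose, all in the authors' deposited table. In CNOT7-DN 2 of 23 tested Trithorax genes rose and 1 fell, 1 of 6 PR-DUB and PhoRC genes and 1 of 5 other PRC2 genes rose, and 0 of 3 demethylase genes changed, all in the authors' deposited table.

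The Hox genes, the best known Polycomb targets, were at very low levels. Of 50 Hox rows 7 reached 1 FPKM in any group and none reached 5. The highest was hoxb7a, at 4.38 FPKM at 2 hpf and 0.322 in control 6 hpf. Of the 5 rows tested between these groups 3 fell and 0 rose in the authors' deposited table, near the 51.7% fallen among all tested genes. The median over the 50 rows lay between 0.0262 FPKM in amanitin and 0.068 at 2 hpf.

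For each of the 8 genes the most alike pattern over the 6 groups was sought among 10002 other genes, by the root mean square difference of mean-centred log2(FPKM + 1). The nearest gene was pgrmc1 for ezh2 (0.048), triobp for eed (0.10), lpcat3 for suz12a (0.039), asic1b for suz12b (0.044) and rrp7a for rnf2 (0.014). It was fam102ab for bmi1a (0.13), org for bmi1b (0.14) and zufsp for pcgf1 (0.055). Within the 8, the nearest gene to bmi1b was pcgf1 at 0.56, and 0.45% of the genes searched were nearer. Seen from pcgf1, bmi1b was the nearest at the same distance, but 10.4% of genes were nearer. suz12a and suz12b were nearest to each other at 0.27, with 10.3% and 10.8% of genes nearer. The nearest to bmi1a was suz12b at 0.67, with 17.1% of genes nearer. By this measure bmi1b was closer to pcgf1 than to its own duplicate.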

How the data were processed

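The submitters' processing notes name TopHat 1.4.0, Cuffdiff 2.1.1 and the build Zv9 (danRer7). Libraries were stranded total RNA without ribosomal RNA, per the labels' protocols. The authors' deposited table gives 1 FPKM per gene and group, though the design states triplicates, with the authors' p-value and q-value for 5 comparisons, per the file headers. The scaling, the use of strand in counting and the source of the triplicates (separate clutches or not) are not stated, so the q-values may measure technical spread only. A group's FPKM stands in several comparisons: 1 column per group was used and 4 repeat columns were not. q under 0.05 matched the authors' own call in all 162855 cases.

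Log2 ratios of FPKM + 1 were computed, which understates changes of low genes, over genes that reached 1 FPKM in either group; 2-fold counts use these ratios. No p-value was computed here. Calls are counted over genes the authors tested.

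The members, the gene lists and the comparisons were chosen with earlier results of these data known. The 6 further lists (other PRC2, canonical and variant PRC1 genes, PR-DUB and PhoRC, demethylases, Trithorax) hold 87 rows, matched by symbol without regard to case, RefSeq synonym or the reference symbol of the gene ID. From each list and from the Hox genes, up to 5 genes are named from control 6 hpf against control 2 hpf and up to 3 from amanitin against control B: those that changed most among genes that reached 5 FPKM with q under 0.05. The most alike genes exclude placeholder names and repeated symbols. hoxb7a, pcgf5a, rybpa, bcor, cbx2, cbx8a and phc1 lie outside this rule and were named after their values were seen. The description of pcgf5b and pcgf6 beyond it, and of cbx8b, phc2b and scmh1 in miR-430 MO, was also added after the values were seen. Alternatives were pseudocounts of 0.1 and 5, FPKM minima, a 1.5-fold rule, q under 0.01, rescaling to equal summed FPKM, centring on the median gene, centring on 82 ribosomal protein genes, and the other 6 hpf control. The ratio and 2-fold rule were run on simulated FPKM with large known changes and with noise below the spread between the 6 hpf controls. This checks the arithmetic only and says nothing of how reliable the counts are. Python 3.11.15, numpy 2.4.6 and pandas 2.3.3 were used.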

Additional observations from a re-analysis of the deposited data

How the results depend on the processing

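No paired analysis was possible because each group has 1 deposited value, and no replicate could be left out. In control 6 hpf against control 2 hpf the median of the 8 genes, -0.91, was -1.41 after rescaling, -0.44 when centred on the median gene, -1.86 with ribosomal protein genes as the centre, and -1.25 with control B. ezh2 turned to -0.21 (rescaled) and -0.65 (ribosomal centring), and rnf2 to 0.019 (median centring). The 2-fold count of 1 in miR-430 MO was 3 by the 1.5-fold rule, 2 with a pseudocount of 0.1 and 0 against control B. In CNOT7-DN the median of 0.50 was 0.78 against control B, the 2-fold count of 1 was 3 by the 1.5-fold rule and 3 against control B, and 2 of 5 calls held at q under 0.01. In amanitin against control B the median of 0.41 was 0.77 after rescaling, 1.504 with ribosomal centring and -0.011 with control 6 hpf. There the 2-fold count of 3 was 1 when centred on the median gene, and pcgf1 turned to 0.58 with ribosomal centring. Against control 2 hpf the amanitin median of -0.65 was -0.31 when centred on the median gene, and the 2-fold count of 2 was 4 by the 1.5-fold rule. Between the 6 hpf controls the 2-fold count of 0 was 1 by the 1.5-fold rule. The cause of these shifts was not tested, beyond the fixed amount that each scaling adds. The other 49 alternatives to these summaries moved medians by less than 0.27, the median difference of the 8 genes between the 6 hpf controls, or counts by no more than 1.5 times. Depth is unknown, so how far it limits low levels such as those of ezh1 and the Hox genes cannot be given.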

Other observations

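The symbol phc2b, a polyhomeotic gene, stands on 2 rows of the table, both counted among the other canonical PRC1 genes. The row on chromosome 1 (ENSDARG00000001915, 774781 to 775204 on Zv9 as the table lists it) covers a short stretch and stood at 2269 FPKM at 2 hpf. At 6 hpf it stood at 278 FPKM in the control, 158 in control B, 868 after miR-430 MO, 969 after CNOT7-DN and 1704 after amanitin. The row on chromosome 6 (ENSDARG00000013224, 48095542 to 48139859) stood at 20.2 FPKM at 2 hpf and between 1.82 and 4.91 in the 6 hpf groups. What the short row measures was not tested, so phc2b is described above by the longer row.

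bmi1a and ezh2 lie 78.3 kb apart on chromosome 24, with 3 rows of the table wholly between them, and their levels moved differently from 2 to 6 hpf (-2.20 and 0.30 on the log2 scale). bmi1b and rnf2 both lie on chromosome 2, 1842.6 kb apart with 52 rows between them, at -2.75 and -0.45. These differences within each pair were not tested.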
